A study of Bos taurus with 12 samples.

Results

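Rumen papillae of 4 Holstein dairy cows were compared between the third and the first week of a grain challenge. The comparison holds the 4 arrays of week 3 and the 4 arrays of week 1, which are 8 of the 12 arrays of the study, and each difference is taken within a cow. It addresses whether expression in the papillae differed between an early and a later week on grain. All 4 cows gave papillae from the ventral sac of the rumen at week 0, while on a high forage diet, and again at weeks 1 and 3 of the challenge. The amount and kind of grain, the ages of the cows and their lactation stage are not given in the sources used here. Each array stands for 1 cow in 1 week, so the replicates are separate animals. Week on grain and calendar time moved together in every cow, and no cow stayed on forage throughout, so time, repeated sampling and diet cannot be told apart.

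The rumen wall is lined by a stratified squamous epithelium whose papillae absorb the short-chain fatty acids made by fermentation. Grain ferments faster than forage, which lowers the pH of the rumen fluid and raises the load of acids and of bacterial products at the epithelium. Epithelial cells make sterols through the mevalonate pathway, which is switched on by SREBP transcription factors when cell sterol is low. They also form a barrier of desmosomes, junctions and cornified cells, and they release defensins, complement proteins and chemokines that act on microbes and draw in leukocytes.

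Values are log2 expression values in which each probe set was centred on its median over the 12 arrays, so a value of 0 marks that median and no value is a level that can be set against another gene. Week 0 values are given for reference and were not compared here. Differences are week 3 minus week 1, in log2 units. Errors on them are standard errors of the fit to all 12 arrays, week 0 included, which shares information on spread between probe sets. They are not the spread of the 4 within-cow differences. Of 24016 probe sets tested, 13292 named 1 gene, and these covered 9155 genes. The median difference over all probe sets was -0.0094. Among the genes, 1976 (21.6%) lay within 0.1 of the shift of their array median in all 4 cows, and for these an unchanged and an undetected gene cannot be told apart. The hybridization controls, which are bacterial and phage transcripts added to each sample, stood highest on the arrays of cow 2 at week 0 (0.72) and of cow 1 at week 0 (0.49) and week 1 (0.48). On the 8 arrays compared they were lowest at week 1 in cow 2 (-0.32), and they lay between -0.057 and 0.051 on the arrays of week 3. The 3′ minus 5′ difference over 6 pairs of control probe sets, which moves with RNA integrity and labelling, was higher at week 3 in 4 of 4 cows, by 0.077 to 0.11 (exact two-sided sign-flip p = 0.13, the smallest that 4 cows allow, and 0.375 after adjustment over 3 array measures). Its part in the differences below was not tested. Papillae are mixed tissue, and fewer cells of a type and less RNA per cell cannot be told apart. Because the values are centred, the share of epithelium in a sample could not be read from its keratins.

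At week 3 most measured enzymes of cholesterol synthesis were lower than at week 1, led by HMGCS1, and 12 of 30 ribosome assembly factors were lower by less. Higher values were found for 10 of 19 complement components, for defensins, lactoperoxidase, neutrophil-attracting chemokines and 9 of 16 antigen presentation genes. No single probe set passed an adjusted p of 0.05 in the limma fit with the cow as a block, which called 0 of 24016, or 0% (lowest adjusted p 0.056). At an unadjusted p under 0.05 there were 1821 probe sets, 1004 higher and 817 lower. Counted once per gene, 585 of 9155 genes (6.39%) were higher and 385 (4.21%) lower at that level. In all 4 cows, 673 genes (7.35%) were higher and 520 (5.68%) lower. These percentages are the background for each list count below that names no alternative setting. Every list count is at the unadjusted level. With array weights 9885 of 24016 probe sets reached that level, 1655 of them higher and 8230 lower. For the lists counted below, counts with array weights are given where a count above 0 moves by over 1.5 times. Those counts are to be read against the numbers with array weights, and not against 6.39% and 4.21%. When the 40% of probe sets that varied least over the 12 arrays were left out, 15 of 14409 (0.104%) passed an adjusted p of 0.05 as higher and 5 (0.0347%) as lower. Of those 20 probe sets, 16 named a gene: GPX3, DEFB4A, C2, C1R, LAP, SMPDL3B, CXCL5, CD53, C1S, SERPINB1 (its less variable probe set, at 0.94) and DMKN, all higher, and FDFT1 and HMGCS1 with 2 probe sets each and PDLIM4, all lower.

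**Figure D1:**
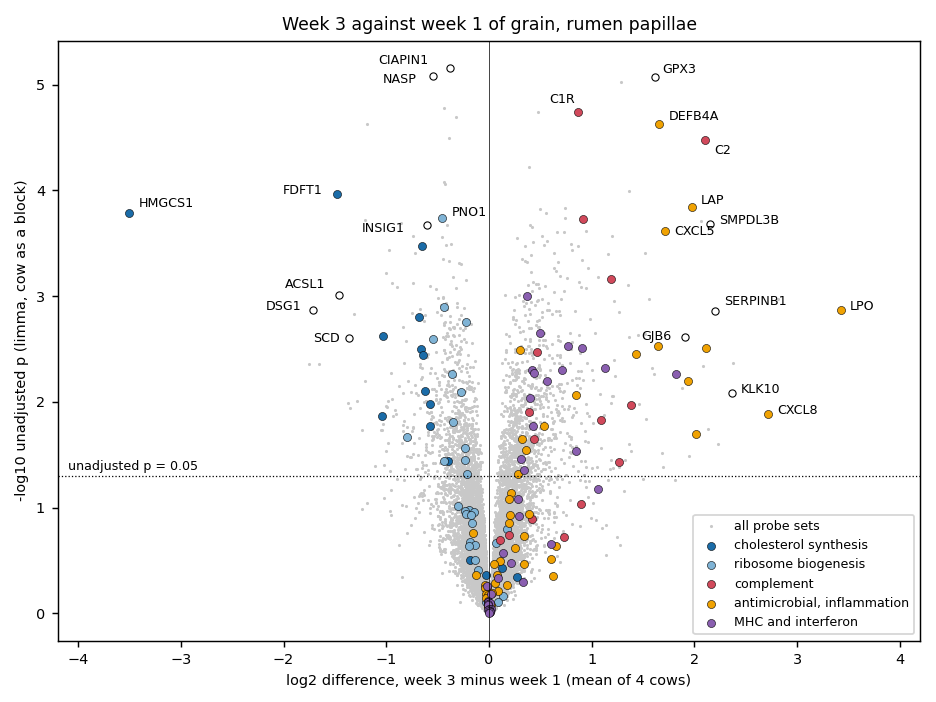
Each point is a probe set, with its log2 difference (week 3 minus week 1, mean of 4 cows) on the horizontal axis and -log10 of its unadjusted p on the vertical axis. Coloured points are the genes of 5 groups, and white points with a name are other genes named in the text. HMGCS1 stands apart at the left at -3.50 and LPO at the right at 3.43.

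Cholesterol synthesis had the lowest median of the 40 gene lists described, at -0.63 against -0.0078 for all 9155 genes. Of its 16 measured genes 12 were lower at an unadjusted p under 0.05 and 0 higher, and 10 were lower in all 4 cows. HMGCS1, the cytosolic HMG-CoA synthase that supplies the mevalonate pathway, stood at 2.43, 0.18, 3.74 and 3.17 in cows 1 to 4 at week 1 and at -1.15, -1.32, -0.83 and -1.19 at week 3. All 4 values of week 3 lay below all 4 of week 1, and they also lay closer together, whereas cow 2 was already low at week 1. At week 0 the gene ranged from -0.68 to 1.46. Its difference was -3.50 ± 0.51, an 11.3-fold lower value (adjusted p = 0.159). These values are of its more variable probe set, and the second HMGCS1 probe set had a smaller difference of -1.21.

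Next came FDFT1, squalene synthase, which makes the first compound committed to sterols. It stood at 0.44, -0.033, 1.11 and 0.81 in cows 1 to 4 at week 1 and at -0.73, -1.17, -0.88 and -0.80 at week 3, again without overlap, and its difference was -1.48 ± 0.20 (adjusted p = 0.151). The farnesyl diphosphate synthase FDPS (-1.03 ± 0.23) and the squalene epoxidase SQLE (-0.65 ± 0.11) act just before and just after it. Of these, FDPS had no overlap between the weeks, and SQLE overlapped through cow 2, whose week 1 value was -0.076. The ring-closing lanosterol synthase LSS was lower in cows 1, 3 and 4 and flat in cow 2, with within-cow differences of -1.64, 0.075, -1.51 and -1.09. The later steps from lanosterol to cholesterol were carried by CYP51A1 (-0.58 ± 0.17), MSMO1 (-0.62 ± 0.17), NSDHL (-0.68 ± 0.14), TM7SF2 (-0.57 ± 0.19) and DHCR7 (-0.65 ± 0.16). At the entry of the pathway the thiolase ACAT2 was at -0.66 ± 0.16 and mevalonate kinase MVK at -0.40 ± 0.16. The next mevalonate steps differed, with the phosphomevalonate kinase PMVK at 0.12 and the mevalonate diphosphate decarboxylase MVD at 0.27, neither of which reached an unadjusted p of 0.05.

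By cow, the mean of the 16 genes differed by -0.72, -0.20, -1.21 and -0.80 in cows 1 to 4, so cow 2 had the smallest difference and cow 3 the largest. Cow 2 was the only cow whose list mean at week 1 was below 0, at -0.26 against 0.40, 0.74 and 0.63 in cows 1, 3 and 4. At week 3 all 4 cows lay between -0.46 and -0.17. The count of 12 lower genes lay between 9 and 12 when each cow was left out in turn, and was 11 without the cow as a block and 6 with array weights.

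Genes that sense or move sterol split in direction, with 3 of 13 higher and 4 lower. INSIG1, which holds the SREBP complex in the endoplasmic reticulum and is itself an SREBP target, stood at 0.36, 0.36, 0.023 and 0.35 at week 1 and at -0.21, -0.46, -0.63 and -0.023 at week 3. The weeks did not overlap, and the difference was -0.61 ± 0.092 (adjusted p = 0.159). The genes of the transcription factors themselves were lower, SREBF1 at -0.41 ± 0.15 and SREBF2 at -0.28 ± 0.12, as was MYLIP at -0.35 ± 0.064, a ubiquitin ligase that removes the LDL receptor. Higher values were found for genes that handle sterol arriving from lysosomes, namely the lysosomal acid lipase LIPA (0.39 ± 0.14) and the lysosomal sterol carrier NPC2 (0.28 ± 0.069), and for SOAT1 (0.71 ± 0.23), which esterifies cholesterol for storage. Without the cow as a block 0 of the 13 were higher, and 1 was higher without cow 2, cow 3 or cow 4 in turn. The 4 lower genes became 2 without cow 1, without cow 3, with array weights, with the 8 arrays alone, after median centring and without the 3 arrays of highest hybridization controls. SOAT1 was higher in cows 2, 3 and 4 and at -0.057 in cow 1.

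Fatty acid synthesis had 5 of 18 genes lower and 0 higher, while its median was near 0 (-0.031). The 5 were the stearoyl-CoA desaturase SCD, the elongases ELOVL6 and ELOVL5, the fatty acid synthase FASN and the acetyl-CoA carboxylase ACACA. SCD stood at 0.76, -0.12, 1.503 and 0.66 in cows 1 to 4 at week 1 and at -0.51, -0.84, -1.07 and -0.23 at week 3, with no overlap and a difference of -1.36 ± 0.31 (adjusted p = 0.286). For ELOVL6 the values were 0.61, 0.77, 0.67 and 0.40 at week 1 and -0.40, 0.078, -0.96 and -0.20 at week 3, also without overlap, and the difference was -0.98 ± 0.16. FASN was lower in cows 1, 3 and 4 and little different in cow 2, with differences of -0.52, -0.062, -0.90 and -0.79. Genes of fatty acid activation and oxidation split in direction, with 2 of 27 higher, 4 lower and a median near 0 (-0.0073). With array weights 4 were higher and 5 lower. The lower count was 2 after median centring, with quantile normalization and without cow 1, cow 2 or cow 3 in turn. ACSL1 (-1.46 ± 0.28) and ACSL3 (-0.45 ± 0.088), which join fatty acids to CoA, and the fatty acid carrier FABP4 (-1.03 ± 0.41) were lower. Without cow 3 the 5 lower genes of synthesis became 3. PDK4, the kinase that turns off pyruvate dehydrogenase when fat is burned, was higher in all 4 cows at 0.73 ± 0.11. The oxidation gene ACADM was higher in all 4 cows too, at 0.14 ± 0.049. Rumen epithelium is known as a site of ketone body formation. Of its 4 measured ketone body enzymes, AACS, which returns acetoacetate to lipid synthesis in the cytosol, stood at 0.58, 0.027, 1.03 and 0.54 at week 1 and -0.20, -0.76, -0.59 and -0.29 at week 3, and its difference was -1.004 ± 0.18. ACAT1 and BDH1 were at -0.27 ± 0.12 and -0.12 ± 0.086, above an unadjusted p of 0.05.

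**Figure D2:**
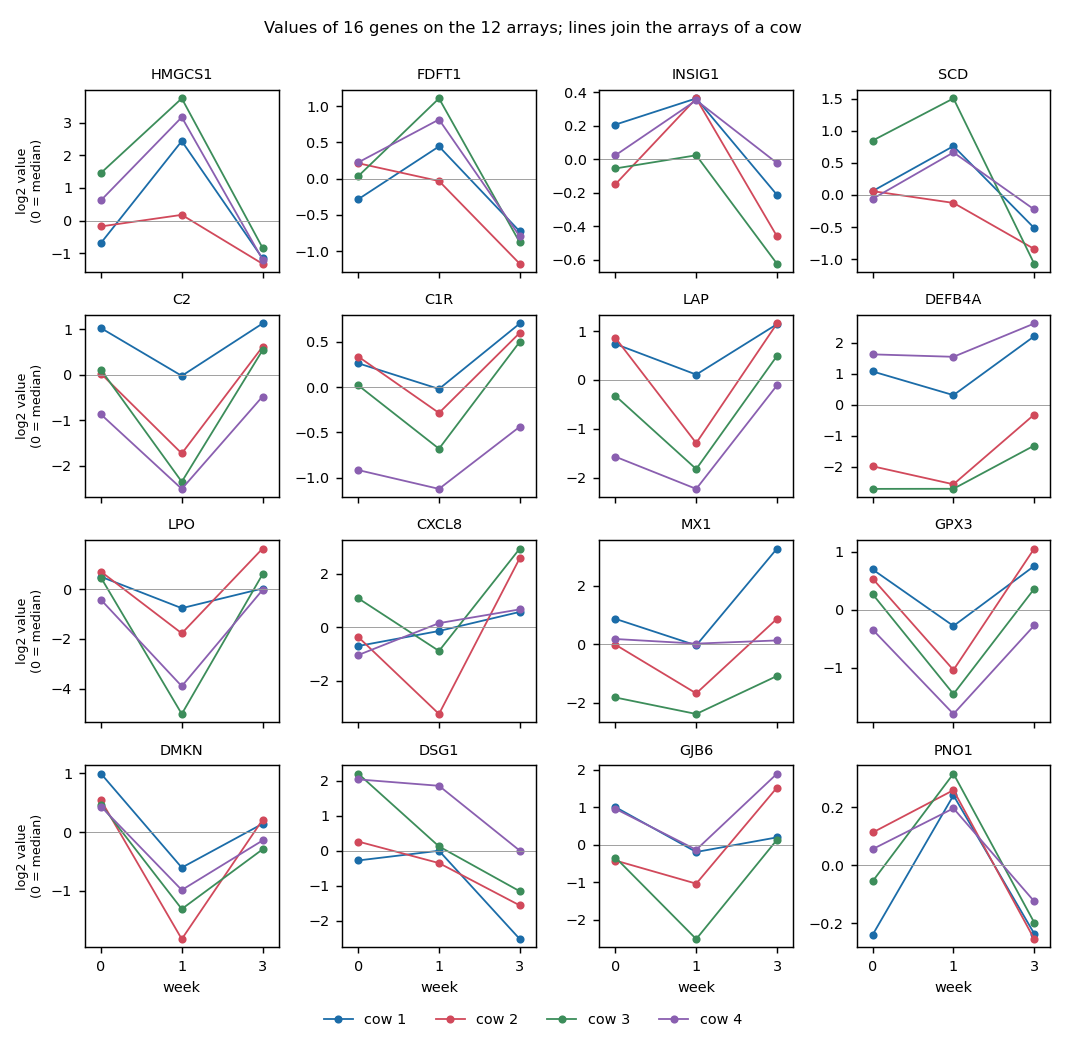
Log2 values of 16 genes at weeks 0, 1 and 3, with 1 line per cow and 0 at the median of the 12 arrays. Sterol and lipid genes peak at week 1 in most cows and are lowest at week 3, the complement and defensin genes have their lowest value at week 1 in nearly every cow, and MX1 is highest at week 3 in cow 1.

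Ribosome assembly factors were lower at week 3. Of 30 measured genes 12 were lower at an unadjusted p under 0.05 and 0 higher, 26 had a negative difference, and the median was -0.21. PNO1, which builds the small subunit, stood at 0.24, 0.26, 0.31 and 0.20 at week 1 and at -0.24, -0.25, -0.20 and -0.12 at week 3, and its 4 week 3 values lay below all 4 of week 1 (difference -0.45 ± 0.068, adjusted p = 0.159). UTP4 (-0.44 ± 0.088), LTV1 (-0.54 ± 0.12) and WDR43 (-0.80 ± 0.28) serve the same subunit, and NCL (-0.23 ± 0.048), fibrillarin FBL (-0.23 ± 0.085) and GAR1 (-0.36 ± 0.095) act in the nucleolus on ribosomal RNA. By cow the list mean differed by -0.20, -0.28, -0.10 and -0.26, so it had the same sign in 4 cows. Outside that list, RRP36 (-0.32 ± 0.034), another small subunit factor, and RIOX2 (-0.44 ± 0.059), a ribosomal oxygenase, were among the 12 lower genes of smallest p. Among the proteins of the finished cytosolic ribosome 2 of 48 were lower and 0 higher, and the median was -0.014. With array weights 4 were lower, and without cow 2 or cow 4 the lower count was 0. Quantile normalization gave 0 lower and 1 higher.

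Mitochondrial ribosome genes were lower in 8 of 52 and higher in 0, with a median of -0.11. The largest of these differences was that of MRPL15, at -0.44 ± 0.076, whose weeks did not overlap (0.30, 0.29, 0.27 and 0.36 against -0.33, -0.29, 0.083 and -0.024). Most of the list difference came from cow 3, whose mean was -0.33 against -0.01, -0.019 and -0.057 in cows 1, 2 and 4. Without cow 3 the count was 2 lower and the split was 24 higher to 28 lower. It was 5 lower without cow 1, without cow 4 and after median centring, and 4 with array weights and without the least variable probe sets.

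Chaperones differed in both directions. Among 25 genes 10 were lower and 2 higher, and the median was -0.16. The lower ones fold proteins in the cytosol and mitochondria, among them HSPA4 (-0.41 ± 0.083), HSP90AA1 (-0.39 ± 0.15), DNAJA1 (-0.36 ± 0.13), HSPH1 (-0.31 ± 0.12), the chaperonin subunits CCT2 (-0.29 ± 0.11) and CCT8 (-0.20 ± 0.064), and mitochondrial HSPA9 (-0.20 ± 0.07) and HSPD1 (-0.14 ± 0.049). The 2 higher ones, DNAJB9 (0.44 ± 0.089) and DNAJC3 (0.42 ± 0.17), work in the endoplasmic reticulum, where HSPA5, the main chaperone of that compartment, was at 0.26 ± 0.12 and missed the unadjusted level. EIF2AK3, the stress sensor kinase PERK, was higher in all 4 cows at 0.46 ± 0.13. By cow the list mean differed by -0.24, 0.036, -0.19 and -0.085, so cow 2 lay on the other side of 0. The count of 10 lower chaperones was 1 without cow 3, 3 with array weights, 6 after median centring, 4 without cow 1, 4 without cow 4 and 6 when the 3 arrays with the highest hybridization controls were left out.

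Among other lower genes, NASP, a histone chaperone, stood at 0.46, 0.16, 0.46 and 0.44 at week 1 and 0.053, -0.41, -0.23 and -0.072 at week 3, with no overlap (difference -0.55 ± 0.052, adjusted p = 0.056). CIAPIN1, which helps to build iron-sulfur proteins in the cytosol, had the smallest p of all named genes. It was lower in each cow, with within-cow differences of -0.30, -0.41, -0.40 and -0.41 and a mean of -0.38 ± 0.035 (adjusted p = 0.056), although the weeks overlapped because the cows differed in level. PDLIM4, an actin-binding LIM protein, was at -0.85 ± 0.13 without overlap.

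Complement had the highest median of the 40 lists, at 0.47, with 10 of 19 genes higher, 0 lower and 10 higher in all 4 cows. C2, the protease of the classical and lectin pathways, stood at -0.024, -1.73, -2.35 and -2.50 in cows 1 to 4 at week 1 and at 1.12, 0.61, 0.54 and -0.48 at week 3. It was higher at week 3 in each cow, the weeks overlapped only through the low week 3 value of cow 4, and the difference was 2.10 ± 0.24, or 4.29-fold (adjusted p = 0.0663). Week 0 values ranged from -0.87 to 1.02. These values are of the more variable of its 2 probe sets, and the mean of both had a smaller difference of 1.73.

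Upstream of C2 lie the proteases C1R and C1S. C1R stood at -0.02, -0.29, -0.68 and -1.13 at week 1 and 0.70, 0.60, 0.50 and -0.44 at week 3, with within-cow differences of 0.72, 0.89, 1.18 and 0.69 and a mean of 0.87 ± 0.093 (adjusted p = 0.057). C1S followed at 0.91 ± 0.14. The recognition subunits C1QA (1.39 ± 0.41) and C1QC (1.26 ± 0.50), which macrophages make, differed less in cow 4 than in cows 1 to 3, with 1.39, 1.79, 2.41 and -0.05 for C1QA. C3, the protein on which all complement routes meet, was higher in all 4 cows at 1.09 ± 0.35, and factor B of the alternative route, CFB, at 1.18 ± 0.22. The cell-surface inhibitors CD46 (0.47 ± 0.11) and CD55 (0.44 ± 0.15), which shield host cells, were higher as well. By contrast CFP, CFI and C5 stayed within 0.1 of the array median difference in every cow. The 10 higher genes became 6 without cow 3, 7 without cow 2, 6 with quantile normalization and 6 without the cow as a block. With array weights 10 were higher and 4 lower.

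Of 16 antimicrobial genes 5 were higher and 0 lower, and 6 stayed within 0.1 of the array median in all cows, so the median was 0.012. With array weights 5 were higher and 6 lower. The beta-defensin LAP, lingual antimicrobial peptide, stood at 0.11, -1.29, -1.82 and -2.22 at week 1 and 1.14, 1.15, 0.49 and -0.11 at week 3. Every cow was higher at week 3, the largest step was in cow 2, and the difference was 1.97 ± 0.28 (adjusted p = 0.159). DEFB4A showed 2 levels among the cows, 0.31, -2.57, -2.71 and 1.55 at week 1 and 2.22, -0.31, -1.32 and 2.63 at week 3, and was higher at week 3 in each, with a mean difference of 1.66 ± 0.18 (adjusted p = 0.057). Cows 1 and 4 were high and cows 2 and 3 low at all 3 weeks. Its probe set carries the array's mark for probes that match several transcripts, the second DEFB4A probe set had a difference of the opposite sign, and bovine beta-defensins are near-identical, so the members of the family cannot be told apart with certainty. The tracheal antimicrobial peptide TAP was at 1.64 ± 0.38, without overlap.

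LPO, lactoperoxidase, which makes antimicrobial hypothiocyanite in secretions, had the largest difference of the higher genes. It stood at -0.76, -1.78, -5.02 and -3.90 in cows 1 to 4 at week 1 and at 0.029, 1.64, 0.60 and -0.029 at week 3, while at week 0 it ranged from -0.43 to 0.71. All week 3 values lay above all week 1 values, cow 1 differed least, and the difference was 3.43 ± 0.70 or 10.7-fold (adjusted p = 0.243). S100A9, a calcium-binding protein of neutrophils and stressed epithelium, was at 0.85 ± 0.24, with no step in cow 1 (0.041, 1.52, 0.92 and 0.90). Its partner S100A8 was at 0.062 ± 0.091.

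Inflammation and innate immunity genes were higher in 11 of 42 and lower in 0, with a median of 0.19. The ligands of the neutrophil receptor came first. CXCL5 stood at 0.33, -0.51, -0.20 and -0.74 at week 1 and 1.39, 2.31, 1.68 and 0.36 at week 3, without overlap, at a difference of 1.71 ± 0.27 (adjusted p = 0.159). CXCL8 was at -0.15, -3.25, -0.89 and 0.15 and 0.57, 2.57, 2.93 and 0.66 in the same cows, so cows 2 and 3 had steps of several log2 units and cows 1 and 4 of less than 1 (difference 2.72 ± 0.84, adjusted p = 0.439). CXCL2 had the same split, with within-cow differences of 0.49, 3.90, 3.37 and 0.29. For recognition of bacterial lipopolysaccharide, the carrier LBP (2.11 ± 0.50), the co-receptor CD14 (1.43 ± 0.34), the receptor TLR4 (0.54 ± 0.18) and its adaptor MYD88 (0.32 ± 0.11) were all higher. The acute phase protein SAA3 was at 1.94 ± 0.52, and IL1RN, which blocks the interleukin 1 receptor, at 0.30 ± 0.072 and without overlap. By cow the list mean differed by 0.14, 0.59, 0.82 and 0.14, so cows 2 and 3 had the larger differences. The 11 higher genes became 5 without cow 2 and 5 without cow 3, and with array weights 15 were higher and 10 lower.

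**Figure D3:**
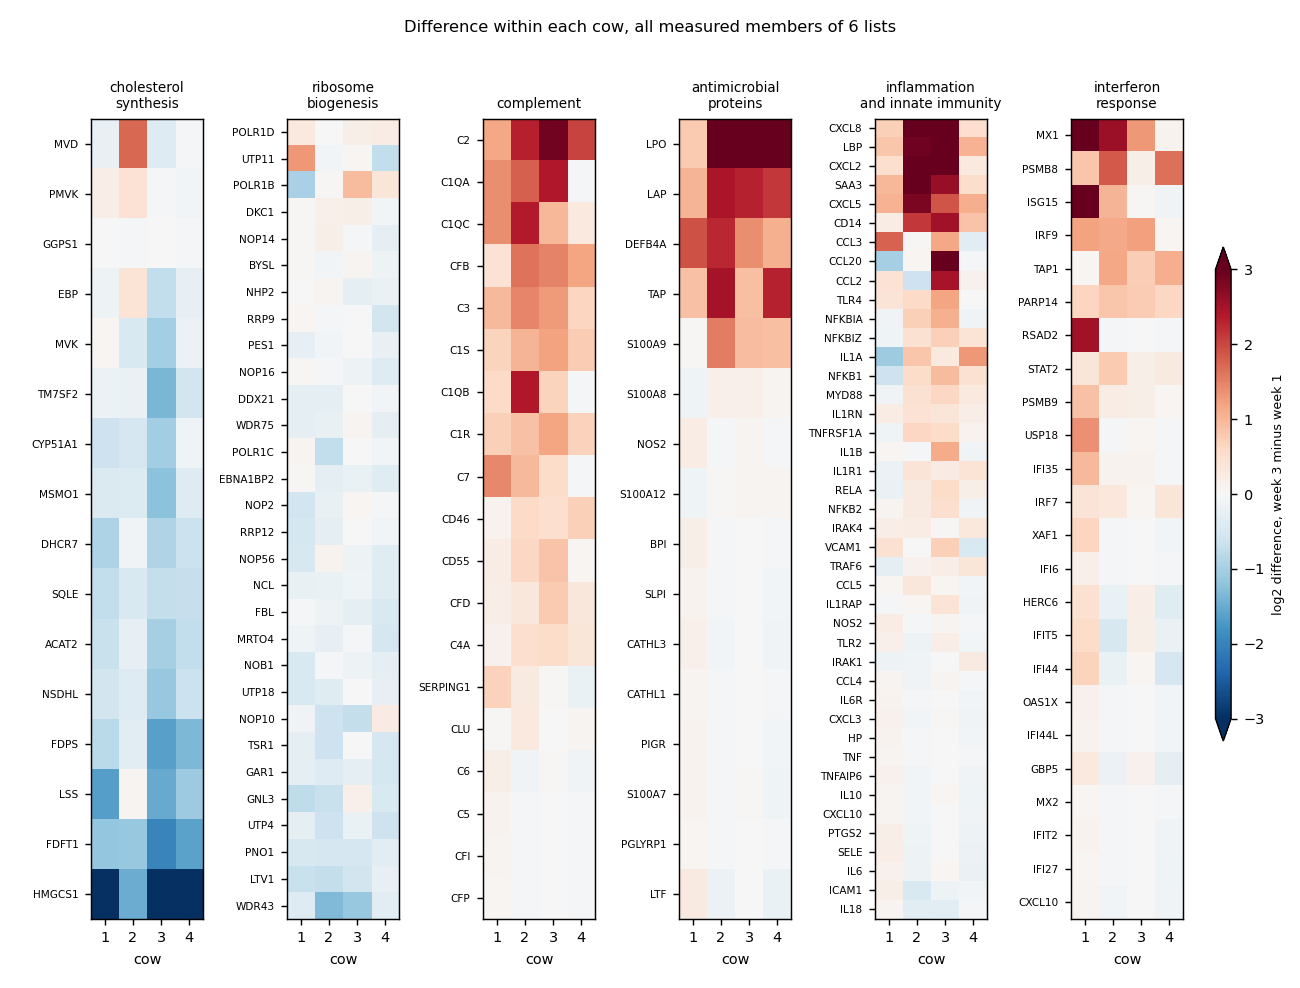
Within-cow log2 differences (week 3 minus week 1, colour) of every measured gene of 6 lists, with 1 column per cow and genes ordered by their mean. Colours saturate at 3 in either direction. The sterol genes are lower in cows 1, 3 and 4 and less so in cow 2, the chemokines are highest in cows 2 and 3, and MX1, ISG15 and RSAD2 are highest in cow 1.

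Antigen presentation genes of the MHC were higher in 9 of 16 and lower in 0, and the median was 0.34. B2M, the light chain of class I molecules, was higher in each cow at 0.37 ± 0.073, with within-cow differences of 0.26, 0.54, 0.25 and 0.44. The class II genes BOLA-DRA (0.49 ± 0.11), BOLA-DRB3 (0.42 ± 0.11) and BOLA-DMB (0.43 ± 0.11) and the peptide transporter TAP1 (0.77 ± 0.18) were higher too. Without the cow as a block 0 of the 16 reached the unadjusted level, and with array weights 8 were higher and 3 lower.

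Interferon response genes were higher in 7 of 24 and lower in 0. Their size depended on the cow, with list means of 0.80, 0.35, 0.23 and 0.079. MX1, an antiviral GTPase, stood at -0.042, -1.69, -2.39 and 0.019 at week 1 and 3.27, 0.87, -1.09 and 0.13 at week 3, so cows 1 to 3 were higher and cow 4 was flat, at a mean of 1.82 ± 0.48. ISG15 was at 4.53, -0.11, -0.17 and -0.13 at week 1 and 7.83, 0.91, -0.13 and -0.25 at week 3, which put cow 1 far above the other cows in both weeks. RSAD2 stood out in cow 1, with within-cow differences of 2.53, -0.05, 0.01 and -0.06. Parts of the same response that did not rest on cow 1 were IRF9 (1.21, 1.14, 1.23 and 0.056) and PARP14 (0.63, 0.83, 0.77 and 0.61), in cows 1 to 4. Without the cow as a block 0 genes were higher at the unadjusted level. Without cow 1, 7 genes were higher at that level while the split over the 24 genes became 10 higher to 14 lower. With array weights 7 were higher and 5 lower.

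Some marker lists of other cell types differed beside these groups. Monocyte, macrophage and dendritic cell markers were higher in 6 of 16 and lower in 0, with a median of 0.22 and list means by cow of 0.49, 0.75, 0.62 and 0.059. This list is not separate from those above, since it shares C1QA, C1QB and C1QC with complement and CD14 with inflammation. The growth factor receptor CSF1R stood at 0.083, -0.22, -0.88 and -0.27 at week 1 and 0.56, 0.63, 0.31 and -0.11 at week 3 (difference 0.67 ± 0.15), cathepsin S (CTSS) at 0.66 ± 0.16 and AIF1 at 0.81 ± 0.22. CD53, a tetraspanin of leukocytes, was higher in each cow, with differences of 0.84, 1.83, 1.41 and 1.98. Neutrophil markers were higher in 1 of 10, which was S100A9, and 4 of the 10, including MPO at -0.048 ± 0.04, stayed within 0.1 of the array median in all cows. T and NK cell markers were higher in 2 of 17 and lower in 1, and subunits of the same receptor disagreed, with CD3E at 0.79 ± 0.30 and CD3G at -1.37 ± 0.40. Of the B cell and plasma cell markers 1 of 6 was higher, JCHAIN at 1.18 ± 0.49. That count was 0 without the cow as a block, with the 8 arrays alone, after median centring and with quantile normalization. It was also 0 without cow 1, without cow 4 and without the 3 arrays of highest hybridization controls. The red blood cell list had 0 of 5 in either direction. Without the cow as a block 2 macrophage markers were higher in place of 6, and with array weights 6 were higher and 3 lower. With array weights 5 neutrophil, 6 T and NK cell, 2 B and plasma cell and 3 red blood cell markers were lower. Without cow 2 no T, NK, B or plasma cell marker reached the unadjusted level. The part of the macrophage markers in the complement, MHC and inflammation differences was not tested.

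Markers of epithelial differentiation were higher in 5 of 11 and lower in 1, with a median of 0.14. DMKN, dermokine, a secreted protein of the upper epidermis, stood at -0.60, -1.82, -1.31 and -0.98 at week 1 and 0.14, 0.21, -0.29 and -0.14 at week 3 without overlap, against 0.44 to 0.99 at week 0, and its difference was 1.16 ± 0.19 (adjusted p = 0.167). The cross-linking enzyme TGM3 was at 0.58 ± 0.15, higher in cows 2 to 4 and flat in cow 1. KLK10, a serine protease of cornifying epithelium, stood at -0.56, -1.26, -0.99 and -0.999 at week 1 and -0.028, 2.73, 2.93 and 0.028 at week 3, with the large values in cows 2 and 3 (difference 2.37 ± 0.67). KRT10, a keratin of differentiating cells, went the other way at -0.19 ± 0.08. The basal epithelium list was split, with 1 of 10 higher (KRT15, 0.35 ± 0.10) and 1 lower (ITGB4, -0.25 ± 0.081), and neither reached that level without the cow as a block. ELF5, an epithelial transcription factor, was at 0.74 ± 0.11 without overlap, and the intramembrane protease RHBDL2 at 0.39 ± 0.049. SMPDL3B (2.15 ± 0.33), SERPINB1, an inhibitor of neutrophil proteases (2.2 ± 0.45), the amino acid transporter SLC6A14 (2.38 ± 0.59) and CHI3L1 (2.13 ± 0.71) completed the largest differences in that direction. The 5 higher differentiation genes became 3 without cow 2, 3 without cow 3, 3 without cow 4 and 3 with the 8 arrays alone.

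Junction genes differed in both directions. DSG1, the desmosomal cadherin of upper epithelial layers, stood at -0.0014, -0.35, 0.12 and 1.85 in cows 1 to 4 at week 1 and -2.52, -1.56, -1.16 and 0.0014 at week 3, and was lower in each cow by more than 1 unit (difference -1.72 ± 0.35, adjusted p = 0.243). DSC3, a desmosomal partner, was at -0.42 ± 0.15. GJB6, the gap junction protein connexin 30, was higher in each cow and without overlap, at -0.19, -1.04, -2.52 and -0.13 and 0.20, 1.53, 0.13 and 1.90 (difference 1.91 ± 0.43). The tight junction protein CGN (0.33 ± 0.099), EPCAM (0.25 ± 0.081) and CLDN7 (0.43 ± 0.16) were higher as well. In all, 6 of 25 junction genes were higher and 2 lower. Without cow 4 the counts were 1 higher and 3 lower, and with array weights 5 higher and 4 lower. Without cow 1, cow 2 or cow 3 in turn, and without the cow as a block, 1 was lower.

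Fibroblast and matrix genes were higher in 11 of 39 and lower in 1, with a median of 0.20. Decorin DCN stood at -0.039, -0.054, -0.55 and -0.79 at week 1 and 0.35, 0.30, 0.039 and -0.29 at week 3, higher in each cow by 0.46 ± 0.098, and THBS4 was at 0.46 ± 0.085 without overlap. Collagen genes were at smaller differences, COL3A1 at 0.29 ± 0.11 and COL12A1 at 0.41 ± 0.15 with 1 of its 3 probe sets of opposite sign, and COL1A2, at 0.45 ± 0.19, missed the unadjusted level. The prolyl hydroxylase subunit P4HA2 was the lower member, at -0.35 ± 0.11. Cow 2 had no overall difference, with list means by cow of 0.16, -0.07, 0.24 and 0.37. Leaving out cow 3 or cow 4 left 4 higher genes each, and 6 were higher without the cow as a block and 5 when the 3 arrays with the highest hybridization controls were left out. With array weights 4 were higher and 5 lower.

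**Figure D4:**
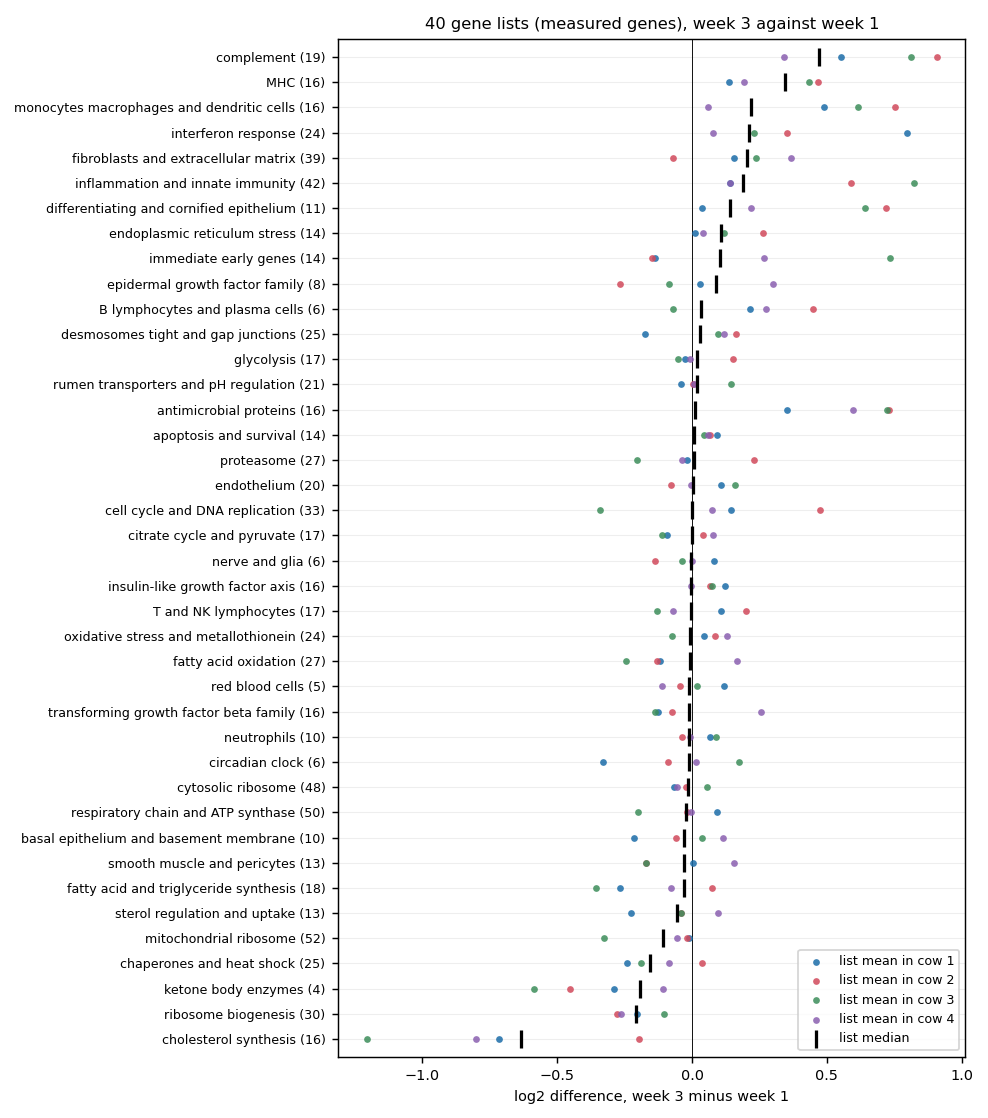
Each row is a gene list with its number of measured genes, the black bar its median log2 difference (week 3 minus week 1) and the coloured points the mean of the list in each of the 4 cows. Cholesterol synthesis is lowest and complement highest, the 4 cows lie on the same side of 0 in both, and the cow 1 point stands apart for the interferon response.

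Transporters of the rumen epithelium had 1 of 21 genes higher and 1 lower. Without cow 3 the counts were 0 higher and 2 lower, and without cow 4 they were 1 higher and 3 lower. Both counts were 2 without cow 1 and with array weights. SLC4A7, a sodium bicarbonate cotransporter, was lower in each cow (-0.39, -0.41, -0.45 and -0.45), at a mean of -0.42 ± 0.057 (adjusted p = 0.139). Carbonic anhydrase 13 (CA13) was at 0.69 ± 0.19 without overlap. Among genes fixed for their known part in acid transport, the monocarboxylate transporter SLC16A1 was at -0.11 ± 0.11 and the sodium-proton exchanger SLC9A3 at 0.20 ± 0.11 with 1 of 3 probe sets of opposite sign, and neither reached the unadjusted level. IGFBP3 was at 0.63 ± 0.38 and IGFBP5 at 0.062 ± 0.22, 2 binding proteins of insulin-like growth factors, and neither reached the unadjusted level.

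Cell cycle genes differed in both directions. Of 33, 8 were higher and 4 lower. The lower count was 7 without cow 2, and 2 after median centring and with quantile normalization. It was 1 without cow 3, without cow 4, with array weights and without the 3 arrays of highest hybridization controls. The higher ones included genes of mitosis, with cyclins CCNB1 (0.73 ± 0.23) and CCNB2 (0.82 ± 0.33), their kinase CDK1 (0.52 ± 0.16), BUB1 (0.45 ± 0.14) and CENPF (0.43 ± 0.12), though BUB1 and CENPF each have a second probe set of the opposite sign. The lower ones included genes of the start of replication, with the helicase subunits MCM3 (-0.44 ± 0.17) and MCM6 (-0.54 ± 0.17) and cyclin D1, CCND1 (-0.46 ± 0.073), which was lower in each cow (-0.27, -0.44, -0.76 and -0.38). MCM6 was flat in cow 2, with within-cow differences of -0.34, 0.019, -1.06 and -0.80. The mean of the list differed in sign between cows 2 and 3 (0.15, 0.48, -0.34 and 0.075), and the higher count of 8 was 4 without cow 1, 1 without cow 2, 13 without cow 3, 3 without cow 4, 4 without the cow as a block, 2 without the 3 arrays of highest hybridization controls and 15 with array weights.

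GPX3, an extracellular glutathione peroxidase, had the smallest p of the higher genes. It stood at -0.28, -1.04, -1.45 and -1.80 in cows 1 to 4 at week 1 and at 0.76, 1.06, 0.36 and -0.27 at week 3, with week 0 at -0.34 to 0.70. The weeks did not overlap, and the difference was 1.62 ± 0.16 or 3.07-fold (adjusted p = 0.056). Mitochondrial superoxide dismutase SOD2 was at 0.28 ± 0.044 without overlap and the thioredoxin reductase TXNRD1 at 0.35 ± 0.10. The mitochondrial peroxiredoxin PRDX3 (-0.27 ± 0.091) and the metallothionein MT2A (-0.41 ± 0.14) were lower, so 4 of 24 genes of this list were higher and 2 lower. The lower count was 4 with quantile normalization and with array weights, and 1 without cow 2 or cow 4.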

How the data were processed

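Papillae RNA of 4 cows at weeks 0, 1 and 3 was labelled for Affymetrix arrays, per the labels' protocols. The deposited log2 values were made with GCRMA, per the submitters' processing notes (version not given in the sources used here), and have a median of 0 in each probe set. The log base is not stated and was taken as 2, since the widest range of 11.2 would be a fold of 74399 as a natural log, beyond the 65535 levels of a 16-bit scanner. The 112 AFFX controls were left out. Symbols came from the array's probe-to-gene table, updated by gene ID for 13263 probe sets (ARS-UCD2.0 gene table).

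The weeks were compared with limma 3.58.1 (R 4.3.3, lmFit and eBayes, two-sided) over 12 arrays, with the cow as a block because differences are taken within cow, and adjusted with the Benjamini-Hochberg method over 24016 probe sets. Same-cow arrays deviated together (correlation of deviations from weekly means 0.30 to 0.69, against -0.59 to 0.066 between cows). The fit was tested on simulated data, where false calls were above the nominal rate, so calls near the threshold are less certain than the adjusted p states. Each gene is represented by its probe set of largest SD. Named are up to 12 genes per direction of smallest p and 8 of largest difference, all of 1 sign in 4 cows, and 9 fixed genes. Up to 4 genes of smallest p per list were also chosen, and not all of these are given. Other genes were named after their values were seen. The comparison and the 40 lists (791 of 1034 genes measured) were chosen with earlier results of these data known. Alternatives were no block, 8 arrays alone, median centring of arrays, quantile normalization, leaving out the 40% least variable probe sets, array weights, a robust prior, leaving out each cow or 3 arrays of high hybridization controls, and gene means.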

Additional observations from a re-analysis of the deposited data

Results flagged for a closer look

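In 13 of 189 within-cow differences examined, 1 cow stood farther from the other 3 than Dixon's critical value for 4 animals allows. Chance flags about 1 in 20 such groups. Cow 1 differed least or most in 4 of them. Its SOAT1 difference was -0.057 against 0.91 to 1.05 in the others, its ERBB3 difference 0.095 against 0.93 to 1.08, its CIAPIN1 difference -0.30 against -0.41 to -0.40, and its RSAD2 difference 2.53 against -0.060 to 0.010. Cow 3 had the lower value in AACS (-1.63, others -0.83 to -0.77), MSMO1 (-1.24, others -0.44 to -0.39), HSPD1 (-0.25, others -0.11 to -0.082) and the mean of the mitochondrial ribosome list (-0.33, others -0.057 to -0.010), and the smaller value in AIF1 (0.29, others 0.91 to 1.02). Cow 4 stood apart in ACSL3 (-0.15, others -0.58 to -0.51), IRF9 (0.056, others 1.14 to 1.23), COL12A1 (0.95, others 0.18 to 0.26) and the mean of the transforming growth factor beta list (0.25, others -0.14 to -0.075).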

How the results depend on the processing

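Of 1936 values of 149 genes under 13 alternatives, 1901 kept their direction and their side of the adjusted p of 0.05, 31 of 21 genes passed it in an alternative, and 4 turned sign. Those 4 were IGFBP5 with array weights (-0.042) and without cow 4 (-0.14), and RSAD2 without cow 1 and without the 3 arrays whose hybridization controls were highest (-0.033 in both). Much of the kept direction was fixed in advance. No block, the 8 arrays alone, the robust prior and leaving out the least variable probe sets do not change the difference of a probe set. Leaving out the 3 arrays gives the same differences as leaving out cow 1. Genes chosen for 1 sign in all 4 cows cannot turn when a cow is left out. With each cow left out in turn, IGFBP5 lay between -0.14 and 0.24 and RSAD2 between -0.033 and 0.83. The number of probe sets called, 0 with the cow as a block, was 0 with no replicate block, with quantile normalization, with a robust prior, without each cow in turn (range 0 to 0) and without the 3 arrays. It was 1 with the 8 arrays alone (an unnamed probe set), 1 after median centring (CIAPIN1), 20 without the least variable probe sets, 31 with array weights, and 6 with gene means (GPX3, C2, CIAPIN1, C1R, RRP36 and DEFB4A). The cause was not tested. The 1821 probe sets at an unadjusted p under 0.05 became 1172 with no replicate block, 9885 with array weights (8230 of them lower), 2832 without the 3 arrays and 931 genes with gene means, and lay between 1252 and 2522 when each cow was left out. The medians of the cholesterol synthesis (-0.71 to -0.47), ribosome biogenesis (-0.25 to -0.18), chaperone, complement (0.44 to 0.87), MHC, inflammation, macrophage, matrix and differentiation lists kept their sign under all 13 alternatives. No block, the 8 arrays alone and the robust prior leave list medians unchanged, so they could not turn a sign. That of the interferon list turned in 2 and that of the antimicrobial list in 3. Values of arrays hold no signal over background, so dim probe sets could not be set apart, and 4 cows limit the precision.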

Other observations

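The respiratory chain and ATP synthase list had 1 of 50 genes lower at an unadjusted p under 0.05 and 0 higher, with NDUFS1, a subunit of complex I, at -0.17 ± 0.039. When the 3 arrays with the highest hybridization controls were left out, 9 were lower and 1 higher. With array weights 2 were lower and 0 higher. In glycolysis 1 of 17 genes was higher, LDHA, which makes lactate from pyruvate, at 0.39 ± 0.094, with values of -0.46, -0.35, -0.15 and -0.44 at week 1 and 0.092, -0.026, 0.026 and 0.059 at week 3 that did not overlap, although 1 of its 3 probe sets had the opposite sign. The citrate cycle list had 1 of 17 lower, IDH3A, a subunit of isocitrate dehydrogenase, at -0.36 ± 0.087. With array weights that list had 1 higher and 0 lower. The proteasome list had 0 of 27 in either direction, 3 lower without cow 2 and 3 higher with array weights.

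Growth factor genes of the epidermal growth factor family differed in both directions. The ligand NRG1 stood at 0.62, 0.36, 1.05 and 0.12 at week 1 and 0.012, -0.65, -0.73 and -0.018 at week 3, lower in each cow and without overlap (-0.88 ± 0.24). Its receptor ERBB3 stood at 0.015, -0.15, -0.52 and -0.016 and 0.11, 0.78, 0.56 and 1.02, higher in each cow and least so in cow 1 (0.78 ± 0.17), although 1 of its 2 probe sets had the opposite sign. ERRFI1, an inhibitor of the receptor family, had a difference of 0.44 ± 0.13, and 1 of its 4 probe sets went the other way. The immediate early gene list had 1 of 14 higher, ZFP36, which promotes decay of inflammatory mRNAs, at 0.35 ± 0.11, and 0 without cow 3. With array weights that list had 0 higher and 2 lower. The caspase CASP4, which senses lipopolysaccharide inside cells, was higher in each cow (0.76, 0.79, 0.47 and 0.44), at a mean of 0.61 ± 0.15.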
